A study of Mus musculus with 6 samples.

Results

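The mouse genes described here encode the Bmal1 activator complex of the circadian clock and the repressors that act on it at E-boxes. They are Arntl, Arntl2, Clock, Npas2, Gm129 (the files' name for Ciart), Bhlhe40 and Bhlhe41. The members were all probes other than controls whose gene name equalled 1 of these 7, which gave 7 of 34821 gene names and 10 of the 55681 probes on the array, each spotted once. Of the 10 probes, 9 passed the filter on dim signals and entered the test across 38323 probes, and every gene kept at least 1 tested probe.

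RNA was measured in aortic arches of female mice with the strain label C57BL/6. All recipients were Mir21+/+ and had received X-rays to the whole body in 2 fractions of 5 Gy within 4 h. The BM Mir21 KO group (knockout marrow) then received bone marrow from Mir21–/– donors, and the BM Mir21 WT group (wild-type marrow) received marrow from Mir21+/+ donors. Both groups began a high-fat diet (HFD) 3 weeks after irradiation and stayed on it for 12 weeks. Each group held 3 arrays, which the series design gives as 3 mice. Their marrow-derived cells differed in the microRNA printed here, whose seed (bases 2 to 8) is in capitals (RefSeq, GRCm38.p6, chr11:86584120-86584141, minus strand).
mmu-miR-21a-5p: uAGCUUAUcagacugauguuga

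Cells of the arch that do not derive from marrow kept a normal Mir21 gene in both groups, so the deletion concerned only part of the tissue. The labels used here give neither the age of the mice nor the hour at which the arches were taken.

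Bmal1, the product of Arntl, pairs with CLOCK or with its relative NPAS2 and binds E-boxes, where the pair switches on period, cryptochrome, Nr1d1, Nr1d2, Dbp and other rhythmic genes. CIART, also called CHRONO, binds Bmal1 and holds the complex back. BHLHE40 and BHLHE41, also called DEC1 and DEC2, occupy E-boxes and bind Bmal1, and they repress the same promoters. Arntl itself is repressed by the REV-ERB receptors through ROR elements, so that its RNA and the RNA of E-box targets peak at different times of day. Clocks of this kind run in the smooth muscle, endothelium and fat of the vessel wall as well as in blood cells.

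Sequences around the annotated starts of the members show which of them carry these elements. RefSeq windows on GRCm38.p6, from 250 bases before to 50 bases after the start, were available for 6 of the 7 genes, in 9 windows. An E-box was searched as CACGTG, which reads the same on both strands, an E-box variant as CACGTT or AACGTG, and the core of a ROR element as TAGGTCA or TGACCTA. None of these motifs overlapped each other in the printed windows. The windows of Ciart, of Bhlhe41 and the downstream 1 of Arntl are printed because they were the only windows of members with a match, and capitals mark the matches.
Ciart, chr3:95882179-95882478, minus strand: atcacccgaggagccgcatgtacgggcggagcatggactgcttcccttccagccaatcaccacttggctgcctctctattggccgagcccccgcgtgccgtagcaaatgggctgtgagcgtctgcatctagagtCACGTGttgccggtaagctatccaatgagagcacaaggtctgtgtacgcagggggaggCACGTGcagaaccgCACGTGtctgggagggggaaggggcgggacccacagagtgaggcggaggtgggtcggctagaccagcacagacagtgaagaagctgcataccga
Bhlhe41, chr6:145865371-145865670, minus strand: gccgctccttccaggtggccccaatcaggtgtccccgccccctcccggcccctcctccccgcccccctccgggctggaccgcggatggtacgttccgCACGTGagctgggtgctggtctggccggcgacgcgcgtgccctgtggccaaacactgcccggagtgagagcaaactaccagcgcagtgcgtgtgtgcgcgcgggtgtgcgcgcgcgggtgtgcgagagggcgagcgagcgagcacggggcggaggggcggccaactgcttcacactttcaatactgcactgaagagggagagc
Arntl, chr7:113207261-113207560, plus strand: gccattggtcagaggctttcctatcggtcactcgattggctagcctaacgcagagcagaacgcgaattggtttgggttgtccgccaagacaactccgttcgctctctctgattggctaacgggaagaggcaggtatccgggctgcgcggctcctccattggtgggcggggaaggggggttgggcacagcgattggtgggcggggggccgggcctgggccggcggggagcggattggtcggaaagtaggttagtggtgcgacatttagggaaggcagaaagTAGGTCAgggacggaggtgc

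Ciart carried 3 E-boxes, whose first bases lay at -116, -58 and -44 from the start. Bhlhe41 carried 1 E-box at -153, and the downstream Arntl window held 1 ROR element core at 31 bases after the start. Of 32817 such windows in the mouse annotation, 7.15% held at least 1 E-box, 0.0884% held 3 or more, 4.69% held the E-box variant and 2.61% held the ROR element core. The windows of Arntl2, Clock and Npas2 held 0 matches of any of the 3 motifs, which says only that these letters are not in those windows.

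**Figure D1:**
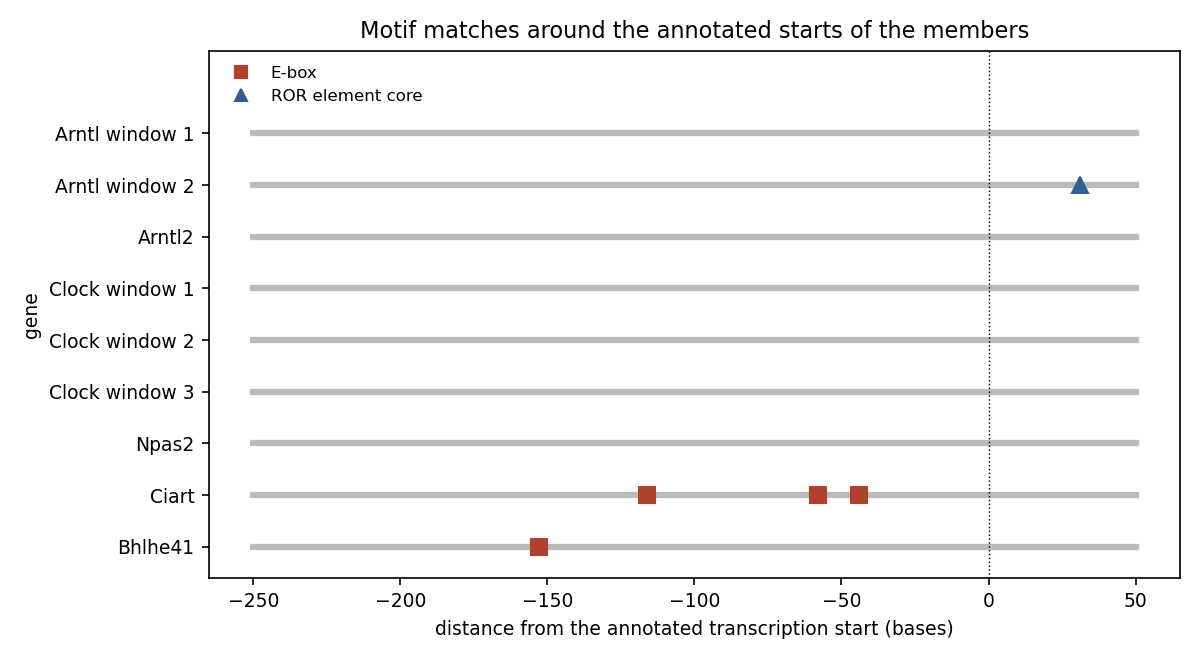
Motif matches in the RefSeq windows of the members. Each grey bar is 1 window, the x axis gives the distance in bases from the annotated start (dotted line), squares mark E-boxes and the triangle marks the ROR element core. Ciart has 3 squares, Bhlhe41 has 1 square and the downstream window of Arntl has the triangle.

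The array files place the probes on mm9, and the position of a probe relative to exons was not analysed here. The Arntl probe lies at chr7:120457261-120457320, the Clock probe at chr5:76641377-76641436 and the Npas2 probe at chr1:39418941-39419000. The Gm129 probe lies at chr3:95682433-95682492 and the Bhlhe40 probe at chr6:108616309-108616368. No probe of another gene name shared a run of 16 bases with the probes of Arntl2, Clock, Npas2, Bhlhe40 or Bhlhe41. With those of Arntl and Gm129, 1 such probe each did. Matches to sequences that have no probe on the array were not searched.

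Each level below is a log2 signal from which the 75th percentile of the array's spots other than controls was subtracted, so that 0 stands for that percentile. Differences are knockout marrow minus wild-type marrow, with the SE of a fit of all 38323 probes by limma and its p adjusted over all of them. The number of arrays limits the precision. Levels of different probes cannot be compared with each other, since probes differ in how strongly they bind.

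The activator Arntl was brighter in every arch with knockout marrow than in any arch with wild-type marrow. It read 1.11, 2.08 and 1.80 on knockout replicates 1, 2 and 3, against -0.52, -2.29 and -2.74 on wild-type replicates 1, 2 and 3. The gap between the nearest arrays of the groups was 1.63. Wild-type replicate 1 stood apart from the other wild-type arrays, 1.33 above its group's mean. The means were 1.66 ± 0.49 with knockout marrow and -1.85 ± 1.17 with wild-type marrow (SD, n = 3 each), a difference of 3.51 ± 0.56 or 11.4-fold. Without wild-type replicate 1 the difference was 4.17, and with 1 array left out in turn it ran from 3.06 to 4.17. It did not pass the test over all probes (limma, adjusted p = 0.36).

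Npas2, which can take the place of CLOCK as Bmal1's partner, had separate groups as well. It read -1.54, -1.88 and -1.13 with knockout marrow and -3.83, -3.82 and -4.59 with wild-type marrow. The difference was 2.56 ± 0.28 with a 95% interval from 1.91 to 3.22, and the gap of 1.94 between the groups exceeded the SD of 0.38 within the knockout group and of 0.44 within the wild-type group. Npas2 had the fifth smallest p of all tested probes and still missed the adjusted threshold (limma, adjusted p = 0.18). Its signals with wild-type marrow were dim, 28.2, 24.1 and 17.0 on the linear scale of the scanner, though well above background on all 3 arrays. With normexp background correction, which adds an offset of 50, its difference was 1.33.

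Clock, the partner of Bmal1 in most tissues, overlapped between the groups. Its level was 0.93, 1.40 and 1.83 on knockout replicates 1, 2 and 3, and 1.30, 0.63 and 0.82 on the wild-type arrays. The difference was 0.47 ± 0.28 with a 95% interval from -0.18 to 1.12, so that neither 0 nor a doubling lies outside it. On knockout replicate 1 alone Clock lay 0.01 above the wild-type mean.

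Arntl2, a paralogue of Arntl that also pairs with CLOCK, was read by 3 probes. The probe at base 2847 of its transcript gave 0.87, 0.59 and 0.98 with knockout marrow and 0.55, 0.91 and 0.75 with wild-type marrow. Its difference was 0.08 ± 0.18 with an interval from -0.34 to 0.50. At this probe alone, that leaves out a difference of the size seen at the Arntl probe. Linear signals were 471 to 686 at this probe and 3.36 to 33.1 at the other probes of the gene. Whether they read the same RNA was not tested. The probe at base 1624 was dim, with a difference of -0.28 ± 0.23, and was not well above background on knockout replicate 3. The probe at base 1413 failed the filter, since it was well above background on 1 knockout array and 0 wild-type arrays, and its levels were -4.51, -4.58 and -4.48 with knockout marrow and -5.53, -6.66 and -5.42 with wild-type marrow. The probe at base 2847 is listed for an Ensembl transcript and the other probes for the RefSeq transcript. These lie at chr6:146781976-146782035 for the Ensembl transcript, and at chr6:146781053-146781112 and chr6:146776628-146776687 for the RefSeq transcript.

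**Figure D2:**
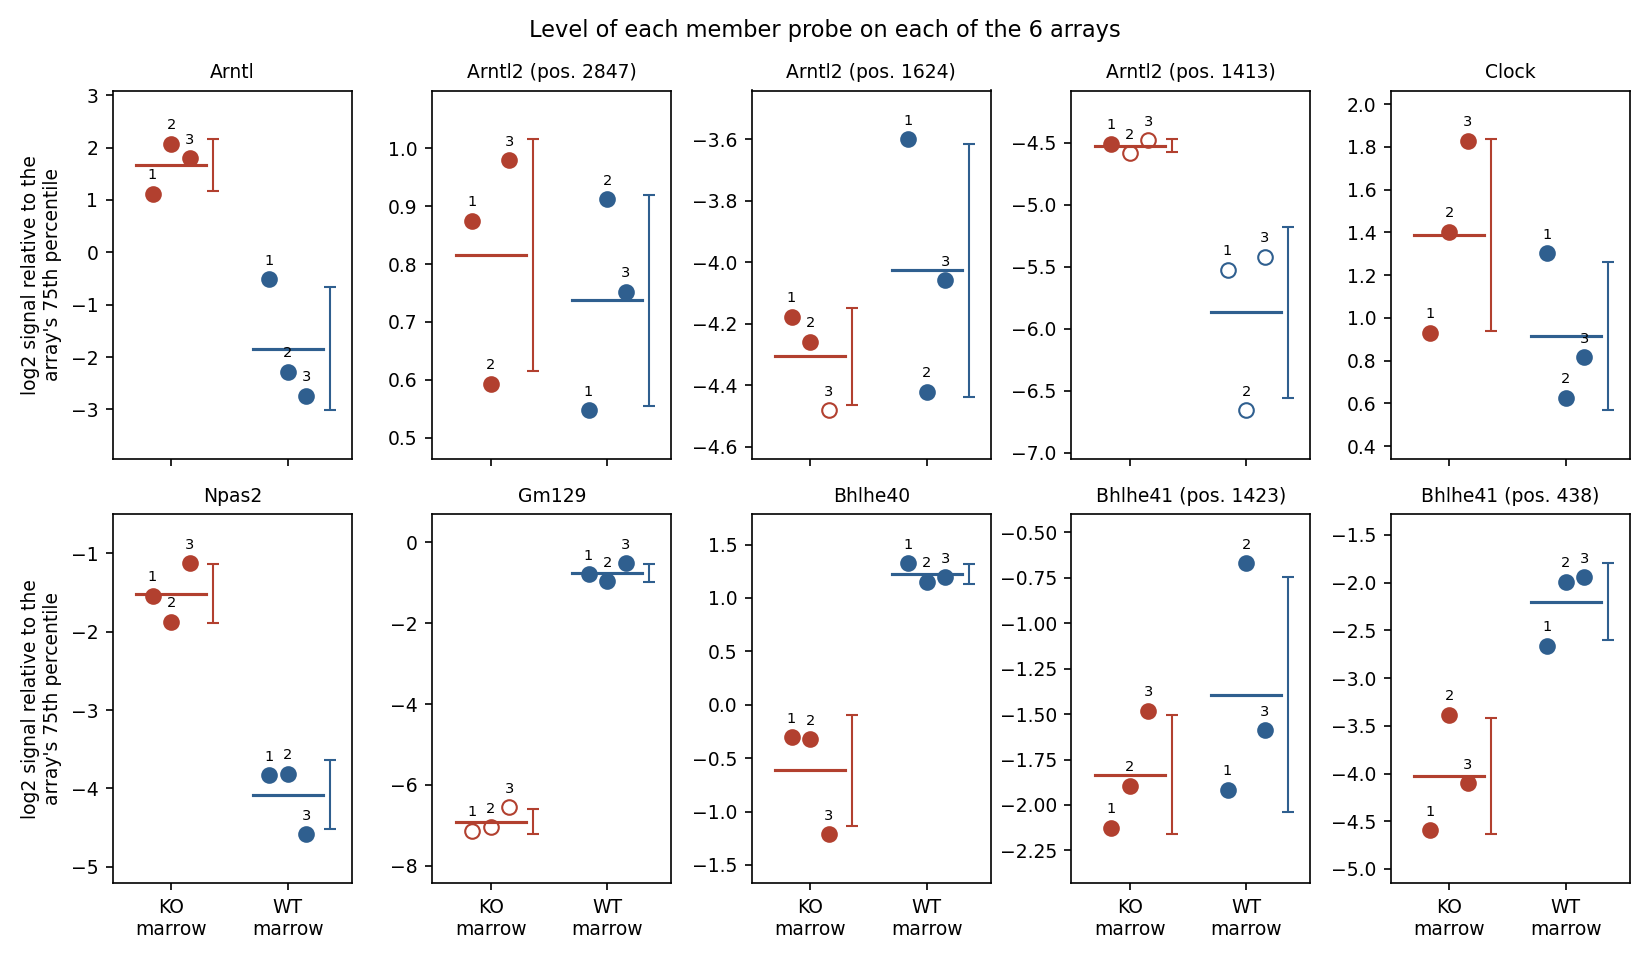
Level of each of the 10 member probes by array. Points are arrays with their replicate number, filled where the probe was well above background and open where it was not, lines are group means, bars beside them are ± 1 SD (n = 3), and "pos." gives the probe's first base in its transcript. Each panel has its own y axis, and the groups do not overlap for Arntl, Npas2, Gm129, Bhlhe40, Bhlhe41 at base 438 and the dim Arntl2 probe at base 1413.

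Among the repressors, Gm129 fell with knockout marrow and was the only 1 of the 38323 tested probes past the adjusted test (0.00261% of them; limma, adjusted p = 0.000241). It gave linear signals of 2.36, 2.92 and 2.55 with knockout marrow, against 232, 174 and 285 with wild-type marrow. On the log2 scale these were -7.13, -7.05 and -6.55 against -0.79, -0.96 and -0.52. The 3 knockout values were not well above background, and the scanner software had replaced all 3 by a surrogate for low signals. The size of the fall was therefore not measured. The wild-type mean lay 16.5-fold above the lowest level of any probe well above background on the knockout arrays. This value compares the wild-type mean of -0.76 with -4.80, the mean of that level over the knockout arrays. It is not a strict limit for this probe. On knockout replicate 2 that level was -4.94, and the Arntl2 probe at base 1413 read -4.58 there without being well above background. The Gm129 probe entered the test through the wild-type group alone, so that some difference was built into its passing the filter. With each probe's own variance in place of the moderated one the adjusted p of limma was 0.13, which ends the call, and the difference was -1.95 with normexp (adjusted p = 0.021). The promoter of this gene is the one with 3 E-boxes printed above. Over the 20 tested genes with 3 or more E-boxes the median difference was 0.01. The part of the E-boxes in the Gm129 difference was not tested.

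Bhlhe40 read -0.30, -0.32 and -1.21 with knockout marrow and 1.33, 1.15 and 1.19 with wild-type marrow. The wild-type arrays lay close together (SD 0.09) and knockout replicate 3 stood apart from the other knockout arrays. The difference of -1.84 ± 0.26, or 3.57-fold lower, did not pass (limma, adjusted p = 0.35). The gap between the groups was 1.46.

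The 2 probes of Bhlhe41 gave differences of unlike size. They are printed because they read stretches of the same transcript that lie apart, from bases 1423 and 438, and no letters are in capitals.
Bhlhe41 from base 1423, chr6:145811275-145811334: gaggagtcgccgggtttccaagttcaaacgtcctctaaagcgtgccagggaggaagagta
Bhlhe41 from base 438, chr6:145812652-145812711: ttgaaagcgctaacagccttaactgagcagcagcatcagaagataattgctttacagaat

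At the probe from base 1423 the groups overlapped, with -2.13, -1.90 and -1.48 for knockout marrow and -1.92, -0.67 and -1.59 for wild-type marrow, a difference of -0.44 ± 0.34. At the probe from base 438 they did not overlap, with -4.59, -3.38 and -4.10 for knockout marrow and -2.66, -1.99 and -1.94 for wild-type marrow, a difference of -1.83 ± 0.34 (limma, adjusted p = 0.36). That probe gave linear signals between 13.6 and 37.1 with knockout marrow, near background, and its difference was -0.56 with normexp. Both differences were below 0 and neither probe passed the test, so the probes disagreed in size and in whether the groups overlapped.

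**Figure D3:**
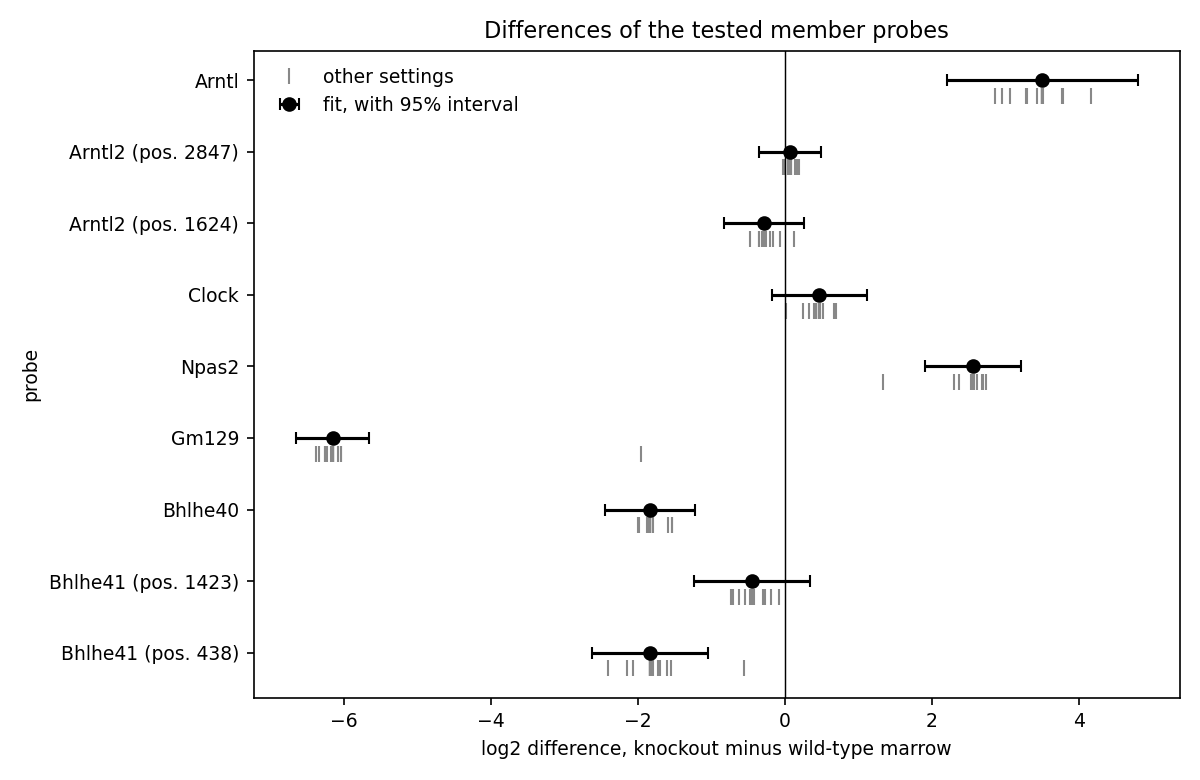
Log2 differences (knockout minus wild-type marrow, x axis) of the 9 tested member probes. Black points are the fit with 95% intervals, and grey ticks are the same probe under the other processing settings and with arrays left out. Arntl and Npas2 lie above 0 and Gm129, Bhlhe40 and both Bhlhe41 probes below 0 under every setting drawn, while the ticks of both Arntl2 probes cross 0.

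In all, 5 of the 9 tested member probes had groups that did not overlap, against 13.7% of all tested probes. The members, and the lists below, were chosen with earlier results of these data known. The shares set beside their counts are thus a description and not a test. Of the 5 member probes, 2 were higher with knockout marrow (background 7.59%), namely the activators Arntl and Npas2. The other 3 were lower (background 6.14%), namely Gm129, Bhlhe40 and the Bhlhe41 probe from base 438, all of them repressors. Gm129 passed the filter through the wild-type group alone. Of the 7 member probes well above background on all 6 arrays, 4 had groups that did not overlap. Of all probes that bright, 5.45% did so lower and 7.87% higher. An unadjusted p below 0.05 was reached by the 5 tested member probes without overlap, against 8.71% of all tested probes (4.45% higher and 4.27% lower). The same 5 had a log2 difference of at least 1 in size, against 2.42% of all tested probes. The median difference over all tested probes was 0.02.

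Most markers of fat were lower on knockout replicates 2 and 3, and their levels were uneven across the arches. With knockout replicate 1 left out, 11 of 12 white and 10 of 12 brown adipocyte markers were lower with groups that did not overlap. The share of all tested probes that did so was 18.3%. The white marker Lep was higher, and the brown markers Prdm16 and Dio2 overlapped. The summed level of 12 white adipocyte markers, in units of the array's 75th percentile, was 838, 176 and 84.9 on knockout replicates 1, 2 and 3 and 842, 483 and 963 on the wild-type arrays. For 12 brown adipocyte markers it was 1158, 171 and 81.8 against 1082, 543 and 1134. With 0 markers of either list past the adjusted test (limma), 4 white and 1 brown marker had an unadjusted p below 0.05. All were lower, as were 4.27% of all tested probes at that p. In bulk tissue fewer cells of a type and less RNA per cell cannot be told apart. On knockout replicate 1 the summed white adipocyte level lay within the range of the wild-type arrays, and the summed brown level slightly above it. Single markers on that array varied more. Against all wild-type arrays, 5 white and 4 brown markers lay above and 0 white and 2 brown markers lay below. On the same array Arntl lay 2.96 above the wild-type mean, Npas2 lay 2.54 above it, and the deviations were -1.53 for Bhlhe40 and -2.40 for the Bhlhe41 probe from base 438. Gm129 was not well above background there, and Clock lay within the wild-type range. This array was singled out after its values were seen, and it had the highest summed level of cardiac muscle markers, though not of each marker. The part of fat content in the members' differences was not tested.

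Of the other cell types, all 10 smooth muscle markers lay well above background on all 6 arrays. Their summed levels were 1970 to 3039 with knockout marrow and 1815 to 2247 with wild-type marrow. Their mean log2 levels were 5.10, 5.54 and 5.70 on knockout replicates 1, 2 and 3 and 5.11, 5.27 and 5.03 on the wild-type arrays. Myh11 was higher in groups that did not overlap, at 0.775 ± 0.242. Another Synm probe did so at 0.41, while the brightest Synm probe read -0.01 and overlapped. The 10 macrophage markers summed to 155.5, 161.5 and 178.5 on knockout replicates 1, 2 and 3. On the wild-type arrays they summed to 109.9, 138.4 and 108.8, so that the sums did not overlap. Itgam was the brightest of these markers on every array. Their mean log2 levels did overlap, at 1.62, 2.47 and 0.92 with knockout marrow and 1.72, 1.04 and 1.44 with wild-type marrow. By the brightest probe, Lyz2 and Adgre1 were the 2 of these markers whose groups did not overlap, both higher. Other probes with groups that did not overlap read 0.525 for Csf1r, and 0.224 and -0.53 for Itgam. A second Adgre1 probe read 0.414 and its groups overlapped. Thymocyte markers summed to 15.6, 5.09 and 6.10 on knockout replicates 1, 2 and 3 and to 14.5, 9.91 and 18.7 on the wild-type arrays. These sums lean on Cd1d1, the brightest of the 10 on knockout replicate 1 and wild-type replicates 1 and 3. It read 3.27, -0.33 and -1.81 with knockout marrow and 3.17, 1.67 and 3.75 with wild-type marrow. Of the 10 markers, 6 were well above background on all 6 arrays. At an unadjusted p below 0.05, 3 were lower (4.27% of all tested probes). Endothelial markers had a median difference of -0.26, with Flt1 and Esam lower in groups that did not overlap, and fibroblast markers one of 0.23 with 0 such genes. Cardiac muscle markers summed to 50.5, 11.8 and 31.9 on knockout replicates 1, 2 and 3 and to between 10.4 and 19.1 with wild-type marrow. The part of smooth muscle, macrophage, thymocyte, endothelial, fibroblast and cardiac muscle content in the members' differences was not tested. Mir21 had 0 probes on the array, so the deletion could not be checked. All arrays shared 1 slide, and the knockout arrays lay in its row 2 and the wild-type arrays in its row 1, so that effects of row and of marrow cannot be told apart. The members vary with the time of day and the labels do not give the hour of collection. The part of that hour in the members' differences was not tested.

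Of the 17 genes listed here as E-box targets of the Bmal1 complex, 15 were tested and 0 passed the adjusted test (limma). Binding of the complex to these genes was not measured. Their median difference was -1.27, against 0.02 for all tested probes. By the brightest probe, the groups did not overlap for 10 of the 15 genes, each of them lower (6.14% of all tested probes). An unadjusted p below 0.05 was reached by 11 lower genes and 1 higher gene (4.27% and 4.45% of all tested probes). The higher gene was Cdkn1a. Another Cdkn1a probe was higher with groups that did not overlap, at 0.742 ± 0.152, and another Cry2 probe overlapped at -0.204 ± 0.195. Second probes of Dbp and Nr1d2 were lower without overlap, at -4.315 and -2.252. Tef and Dbp, which encode activators at D-boxes, read -1.93 ± 0.22 and -4.19 ± 0.56. Per1, whose product restrains the Bmal1 complex, read -1.07 ± 0.18 at 1 probe and -0.01 ± 0.15 at another. Usp2, a ubiquitin protease with a rhythmic transcript, read -1.40 ± 0.26. Cry1 and Avp did not pass the filter. Without knockout replicates 2 and 3 the median was -0.96, and on the array that was left 10 genes lay below and 1 above all wild-type arrays. With only 1 knockout array, 26% of all tested probes lay below and 35.1% above all wild-type arrays.

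The clock loop outside the members shared 9 tested genes with that list, which is 47.4% of its 19 tested genes and 60.0% of the 15. Its median was -0.63, and 0 genes passed the adjusted test (limma). Groups did not overlap for 9 lower genes and 1 higher gene (6.14% and 7.59% of all tested probes). At an unadjusted p below 0.05 there were likewise 9 lower and 1 higher (4.27% and 4.45% of all tested probes). The higher gene was Nfil3, a repressor at D-boxes, at 2.71 ± 0.51. Another Csnk1d probe was also higher with groups that did not overlap, at 0.418 ± 0.16, while the brightest Csnk1d probe overlapped at 0.033. Nfil3 read 2.51, 3.72 and 3.46 on knockout replicates 1, 2 and 3 and 1.63, -0.14 and 0.07 on the wild-type arrays.

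Gene families near the members had medians closer to 0. Of 21 partners and modifiers of the Bmal1 complex, 4 were higher and 5 lower with groups that did not overlap, and the median was -0.10. That share is above the background of 13.7%, and their differences were smaller than those of Arntl, Npas2, Gm129 and Bhlhe40. The 4 with the smallest p were the histone deacetylase Hdac3 at -0.53 ± 0.19, the CLOCK inhibitor Cipc at -0.46 ± 0.17, the acetyltransferase Crebbp at 0.48 ± 0.18 and the methyltransferase Kmt2a at 0.37 ± 0.15. A second Crebbp probe read -0.01 ± 0.17. Csnk2a1 was counted as lower by its brightest probe, at -0.275, but another Csnk2a1 probe was higher without overlap, at 0.339. Sirt6 was counted as overlapping, but another Sirt6 probe was higher without overlap, at 0.525. Among 11 relatives of Arntl, Clock and Npas2 with bHLH-PAS domains or in that family's coactivators, the neuronal factor Npas4 read 0.62 ± 0.27, Npas3 0.38 ± 0.19, the hypoxia factor Epas1 -0.41 ± 0.23 and Arnt -0.33 ± 0.18. Among 8 relatives of Bhlhe40 and Bhlhe41, the Notch targets Hey1, Hey2 and Heyl read -0.77 ± 0.21, -0.42 ± 0.29 and -0.19 ± 0.27, and Hes5 read 0.27 ± 0.17. Among 16 other E-box factors of the bHLH-zipper class, Mlxip read -0.63 ± 0.25, Usf2 -0.54 ± 0.25, the lipogenic factor Srebf1 -0.75 ± 0.37 and the glucose-responsive factor Mlxipl -1.44 ± 0.71. Other probes read 0.05 for Mlxip, 0.32 for Usf2 and 0.06 for Mlxipl, and likewise 0.06 for Arnt, -0.28 and 0.00 for Epas1 and -0.27 for Cipc. In these 4 lists 0 genes passed the adjusted test (limma). At an unadjusted p below 0.05, 3 genes were higher and 4 lower (4.45% and 4.27% of all tested probes).

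**Figure D4:**
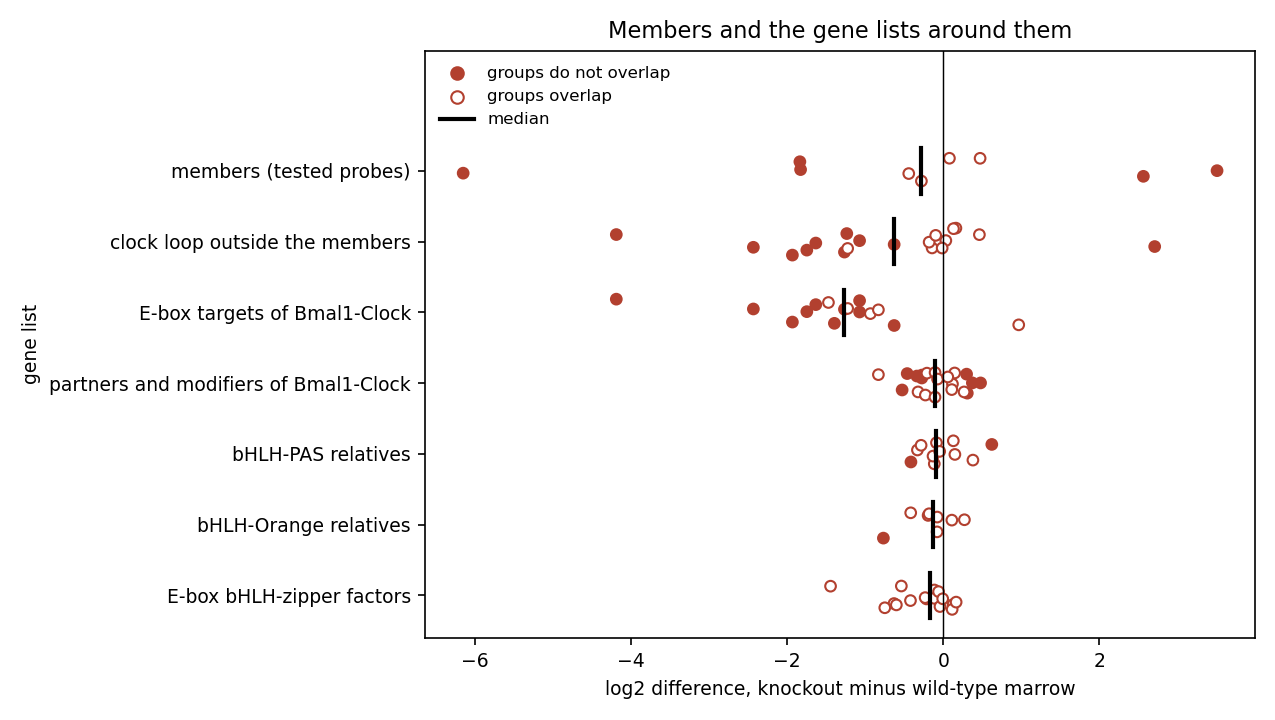
Log2 differences (knockout minus wild-type marrow, x axis) of the tested member probes and of the genes of 6 lists, 1 point per probe or gene, shifted vertically at random. Filled points have groups that do not overlap and black lines are medians. The E-box targets lie mostly below 0 (median -1.27) and the 4 lists at the bottom have medians near 0.

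The genes whose pattern over the 6 arrays was most like that of Arntl were ranked among 17517 named genes by the root mean square distance between centred log2 levels. Of the 5 nearest, the named ones were Nfil3 at a distance of 0.47, the small GTPase Rasl11a at 1.01 and the lysozyme gene Lyz2 at 1.11, and 2 were uncharacterised transcripts. Closest to the mirror image of Arntl was Dbp at 0.82, followed among named genes by ccdc198 (a Riken name in the files) at 0.83, the cation transporter Slc22a3 at 0.89 and Ccdc122 at 0.90. Of these, ccdc198 was well above background on 0 knockout arrays and Slc22a3 and Ccdc122 on 1 knockout array each, so their distances and ranks rest partly on signals near background. Dbp read 2.14, 0.73 and 2.99 with knockout marrow and 5.51, 6.69 and 6.22 with wild-type marrow. These genes were picked for likeness on these same arrays, so the array order they share with Arntl is part of the choice. In it, wild-type replicate 1 was the wild-type array nearest to the knockout arrays for Arntl, Nfil3 and Dbp. For Gm129, Bhlhe40 and Npas2 wild-type replicate 1 had deviations of -0.03, 0.10 and 0.25 from the wild-type mean on that array.

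**Figure D5:**
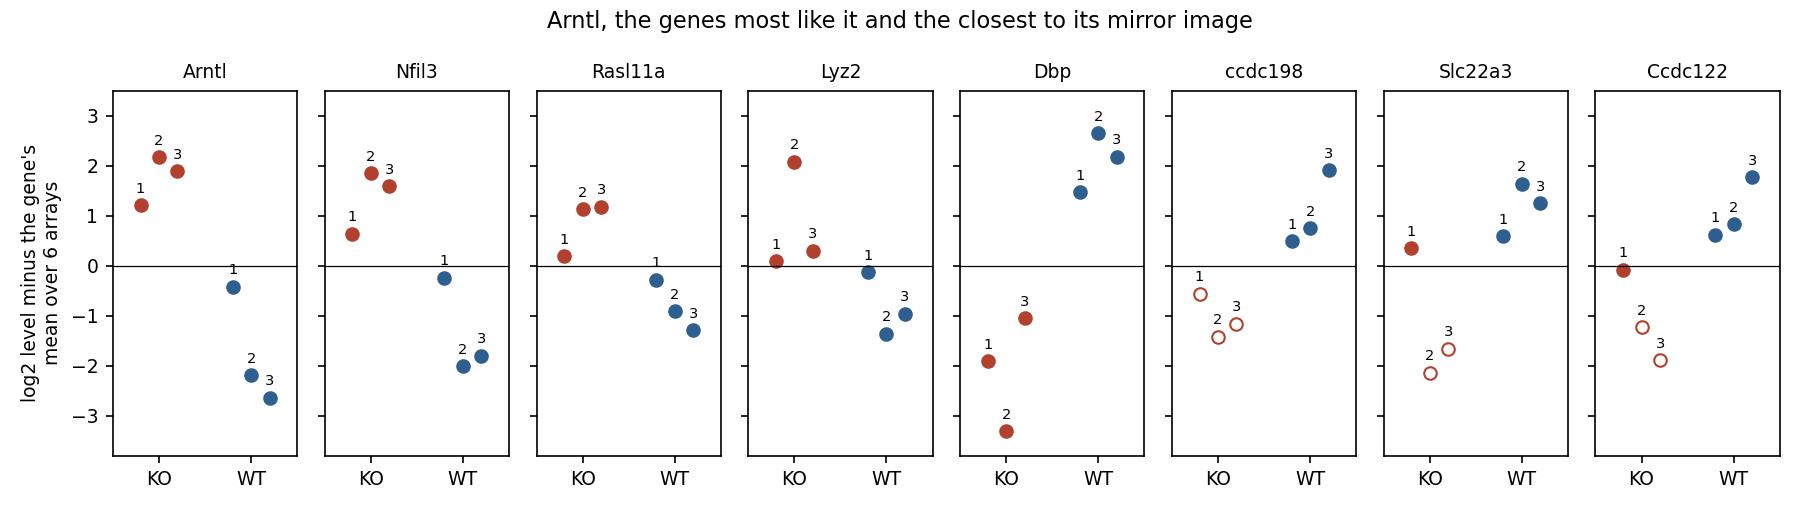
Arntl, the named genes among the 5 nearest to its pattern (Nfil3, Rasl11a, Lyz2) and those among the 5 nearest to its mirror image (Dbp, ccdc198, Slc22a3, Ccdc122). Points are arrays with their replicate number, open where the probe was not well above background, and the y axis is the log2 level minus the gene's mean over the 6 arrays. Wild-type replicate 1 is the wild-type array nearest to the knockout arrays for Arntl, Nfil3 and Dbp.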

How the data were processed

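Signals came from 6 one-colour Agilent arrays, 1 per arch, labelled with Cy3 from 100 ng of RNA. Per the file headers, the deposited intensity is the processed signal of Feature Extraction 10.7.3.1, background-subtracted, detrended and given a surrogate where low, with no normalization between arrays. Intensities in the deposited series table lay within 0.5% of those in the scanner files. The authors' further steps are not given in the sources used here. From these intensities log2 values minus each array's 75th percentile over 59305 spots other than controls were computed. Outlier spots were left out, and 23 probes were set aside for them. Testing required a probe to exceed background clearly (the software's own flag) on every array of 1 group or both.

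Differences (knockout minus wild-type) come from limma 3.58.1 (lmFit, eBayes; R 4.3.3). Its two-sided p-values were adjusted by Benjamini-Hochberg over the 38323 probes, with a threshold of 0.05. The fit was tested on simulated data. Array 75th percentiles ran from 239 to 386 in the knockout group and from 340 to 407 in the wild-type group, with 0 saturated spots.

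The members and lists were chosen with earlier results of these data known. Named genes were all member probes, the 4 genes of smallest p per list, and the 5 genes nearest to the Arntl pattern and to its mirror image, with uncharacterised names left unprinted. The brightest tested probe stood for a gene. Genes were named through a RefSeq table for 31462 probes. Replicate numbers are the labels' own. Deviations of same-numbered arrays correlated at 0.12, 0.05 and -0.28, so the numbers were not taken as pairs. Alternatives were background correction, normalization, filter, the series table, a replicate block, variance model, array weights and left-out arrays. The fits without knockout replicates 2 and 3 and without moderation were chosen after seeing the data.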

Additional observations from a re-analysis of the deposited data

How the results depend on the processing

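The count of all probes past the adjusted test (limma) was 1, and 2 with array weights, median centring or a trended robust variance, 4 with normexp, 6 without knockout replicates 2 and 3, and 1 to 3 with 1 array left out. It was 0 over probes well above background on all 6 arrays (3005 at an unadjusted p below 0.05), where Gm129 is not tested, and 0 with the variance not moderated (2931 unadjusted). The count of member probes past the test was likewise 0 in these 2 settings (4 and 5 unadjusted), and 1 in the other settings, leave-1-out fits included. With the replicate block 1 probe passed and 5 member probes had groups that did not overlap, and no member call changed. That last count ran from 5 to 6 with 1 array left out. The Arntl2 difference was -0.10 as the mean of its tested probes and ran from -0.016 to 0.19 with 1 array left out. The adjusted p ran from 0.07 to 0.90 for Arntl, from 0.09 to 0.60 for Npas2 and from 0.05 to 0.89 for Bhlhe40. The causes were not tested. Dim signal limits Npas2, Gm129, the Arntl2 probes at bases 1413 and 1624 and the Bhlhe41 probe at base 438.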

Other observations

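Genes were also sorted by the number of E-boxes in their promoter windows. Of 13703 tested genes with a promoter window, 12302 held 0 E-boxes, 1256 held 1, 125 held 2 and 20 held 3 or more. The median differences were 0.01, 0.00, -0.05 and 0.01 in that order. The groups did not overlap, with the knockout arrays lower, for 5.87% of genes with 0 E-boxes, 7.25% with 1, 8.80% with 2 and 10% with 3 or more. With the knockout arrays higher, the shares were 6.08%, 5.65%, 2.40% and 5% in the same order. In the last class the lower genes were 2, Ciart and Klf15, a zinc finger regulator of metabolism, at -0.79 for Klf15. Genes with several E-boxes whose levels overlapped included Cdk4 at -0.02, Apex1 at 0.03 and Lamp1 at 0.14. These genes were picked after their values were seen, no test was made, and the windows do not cover distal elements.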
